A study of Mus musculus with 8 samples.

Results

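Vascular potassium channels were described here as a group of 9 genes measured in the ascending aorta: the inward rectifier genes Kcnj15 and Kcnj2, the pore and regulatory subunits of the vascular ATP-sensitive channel (Kcnj8 and Abcc9), the pore and beta subunits of the large-conductance calcium-activated (BK) channel (Kcnma1 and Kcnmb1), the voltage-gated channel genes Kcna5 and Kcnq5, and the two-pore leak channel gene Kcnk3. Each gene was chosen by its symbol, through the transcript cluster (the array's unit of measurement for a transcript) with that symbol alone, and where there were several clusters the one selected on the highest mean signal over all arrays. Each of the 9 genes had 1 such cluster, out of 30142 genes with a cluster of a single symbol, so signal level decided none of them. Signals were compared between 4 arrays of Fbn1mgR/mgR aorta (arrays mgR611, mgR612, mgR613 and mgR614) and 4 arrays of wild-type aorta (WT675, WT676, WT742 and WT744). Fbn1mgR/mgR mice are homozygous for mgR, a hypomorphic allele of the gene for the microfibril protein fibrillin-1 that serves as a mouse model of severe Marfan syndrome. All mice were male, 10 weeks old and bred from heterozygous Fbn1mgR/+ parents with a C57BL/6J background, and the labels name no drug or other treatment. Fbn1 itself was not analysed here. The labels number the arrays and do not say that each came from a separate mouse, so p-values measure the spread between these arrays. All values are log2 signals, and every difference is the mean of the Fbn1mgR/mgR arrays minus that of the wild-type arrays in log2 units.

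Potassium channels set the resting membrane potential of vascular smooth muscle and endothelium: potassium leaving the cell through open channels hyperpolarises it, closes voltage-gated calcium channels and relaxes the vessel wall. ATP-sensitive channels open when cellular ATP is low and are assembled from a pore (Kcnj8 in vessels) and a sulfonylurea receptor (Abcc9 in vessels), both abundant in mural cells of small vessels. BK channels open on depolarisation and local calcium release, and in smooth muscle the beta subunit raises their calcium sensitivity. Inward rectifiers, voltage-gated channels and two-pore channels carry current near rest.

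Because expression of the channel genes was compared, the 250 bases upstream of the annotated start are shown for 5 of them, from RefSeq (GRCm38.p6), 5′ to 3′ on the strand of the gene. These are Kcnj15, whose signals differed by the greatest amount among the 9 genes, the BK pair Kcnma1 and Kcnmb1, whose signals varied together over the arrays, and Kcnj8 and Abcc9, which are neighbouring genes on chromosome 6. The windows are chr16:95257308-95257557 (plus strand) for Kcnj15, chr14:24004206-24004455 (minus) for Kcnma1, chr11:33962763-33963012 (plus) for Kcnmb1, chr6:142571615-142571864 (minus) for Kcnj8 and chr6:142702275-142702524 (minus) for Abcc9. Capitals mark matches to a motif searched on both strands.
Kcnj15: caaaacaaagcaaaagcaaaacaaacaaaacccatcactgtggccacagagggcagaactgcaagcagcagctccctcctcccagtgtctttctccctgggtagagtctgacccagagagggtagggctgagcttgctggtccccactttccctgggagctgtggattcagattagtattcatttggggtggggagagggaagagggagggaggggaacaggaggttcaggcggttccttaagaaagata
Kcnma1: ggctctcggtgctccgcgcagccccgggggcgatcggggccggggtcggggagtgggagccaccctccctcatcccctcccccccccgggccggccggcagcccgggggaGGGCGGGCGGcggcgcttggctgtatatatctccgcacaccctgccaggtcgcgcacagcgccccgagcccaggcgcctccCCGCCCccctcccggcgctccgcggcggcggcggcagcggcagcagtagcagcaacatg
Kcnmb1: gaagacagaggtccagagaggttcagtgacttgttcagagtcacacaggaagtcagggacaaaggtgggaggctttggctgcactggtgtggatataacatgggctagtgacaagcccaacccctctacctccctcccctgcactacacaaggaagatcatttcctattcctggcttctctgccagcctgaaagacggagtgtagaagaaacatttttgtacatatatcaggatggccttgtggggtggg
Kcnj8: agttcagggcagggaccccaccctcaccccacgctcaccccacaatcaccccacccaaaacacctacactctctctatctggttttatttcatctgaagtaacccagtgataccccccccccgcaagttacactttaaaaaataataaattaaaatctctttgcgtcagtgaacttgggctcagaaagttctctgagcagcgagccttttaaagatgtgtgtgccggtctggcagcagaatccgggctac
Abcc9: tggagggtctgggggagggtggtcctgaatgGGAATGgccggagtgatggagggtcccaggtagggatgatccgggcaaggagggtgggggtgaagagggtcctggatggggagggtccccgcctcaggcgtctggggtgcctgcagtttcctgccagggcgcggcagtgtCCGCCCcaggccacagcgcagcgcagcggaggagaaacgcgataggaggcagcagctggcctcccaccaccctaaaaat
The motifs were the CArG box of serum response factor, found in 1.47% of 32851 promoter windows of this length, TATAAA (12.4%), GGGCGG (32.7%) and CATTCC (12.6%), the core of the TEAD binding motif. The windows counted leave out 1 chromosome, on which none of the 9 genes lies. The windows of Kcnj15, Kcnmb1 and Kcnj8 held none of these letter strings, with GC contents of 53.2%, 50.8% and 49.2%. The Kcnma1 window, at 79.2% GC, held 3 matches to GGGCGG, 2 of which overlap. The Abcc9 window, at 66.8% GC, held 1 match to GGGCGG and 1 to CATTCC. Promoters of 8 of the 9 genes were in the table, and the entry of Kcnk3 was not. A match is a string of letters and not a measured binding site.

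The arrays were alike in overall signal, with medians between 3.95 and 4.07. A limma fit over 32957 transcript clusters called 507 higher and 184 lower in Fbn1mgR/mgR aorta (adjusted p under 0.05). The labelled tissue was checked by its markers: the smooth muscle gene Acta2 averaged 19.40 in Fbn1mgR/mgR aorta and 19.51 in wild-type aorta. Both means lay near the highest signal on any array, 19.93. The mean of 14 smooth muscle markers spanned 11.91 to 12.93 in Fbn1mgR/mgR aorta and 12.63 to 13.34 in wild-type aorta, and array mgR614 was the lowest of all. All 14 macrophage markers were higher in the mutant, with list means of 9.73 to 10.49 in Fbn1mgR/mgR aorta against 7.80 to 8.18 in wild-type aorta. Brown fat markers stood apart on 1 array of each genotype, at 10.93 on mgR614 and 11.09 on WT676, against 6.54 to 8.42 on the other arrays. Cardiac muscle markers were highest on WT675, with a list mean of 7.12 against 6.00 to 6.30 on the other arrays. The mesothelial list mean was 10.38 to 11.68 in Fbn1mgR/mgR aorta and 10.45 to 12.39 in wild-type aorta. The ascending aorta was measured whole, and a smaller number of cells of a type and less RNA per cell cannot be told apart in any value below.

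Kcnj15 was the gene that fell in Fbn1mgR/mgR aorta, and Kcnma1 was the other one whose 2 genotypes did not overlap. Of the 9 genes, 8 were bright enough to be tested. At an adjusted p under 0.05 in limma, none of the tested genes other than Kcnj15 was called in either direction. Of all tested clusters, 0.558% were lower and 1.54% higher. Before adjustment, 4 of the 8, Kcnj15 among them, were lower at a p under 0.05 and 0 were higher, beside 6.72% of all tested clusters lower and 7.45% higher. Every mutant array lay below every wild-type array for 2 of them, as for 3.65% of all tested clusters. The genes were brought together when the fall of Kcnj15 was already known, so these counts describe them and carry no weight as evidence about the group. Kcnj15 was included for its difference, so its own place in each count was settled by that choice and is no test. Mean signals were lower in the mutant for 5 and higher for 3, and the median difference was -0.43, against -0.02 over all tested clusters.

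**Figure D1:**
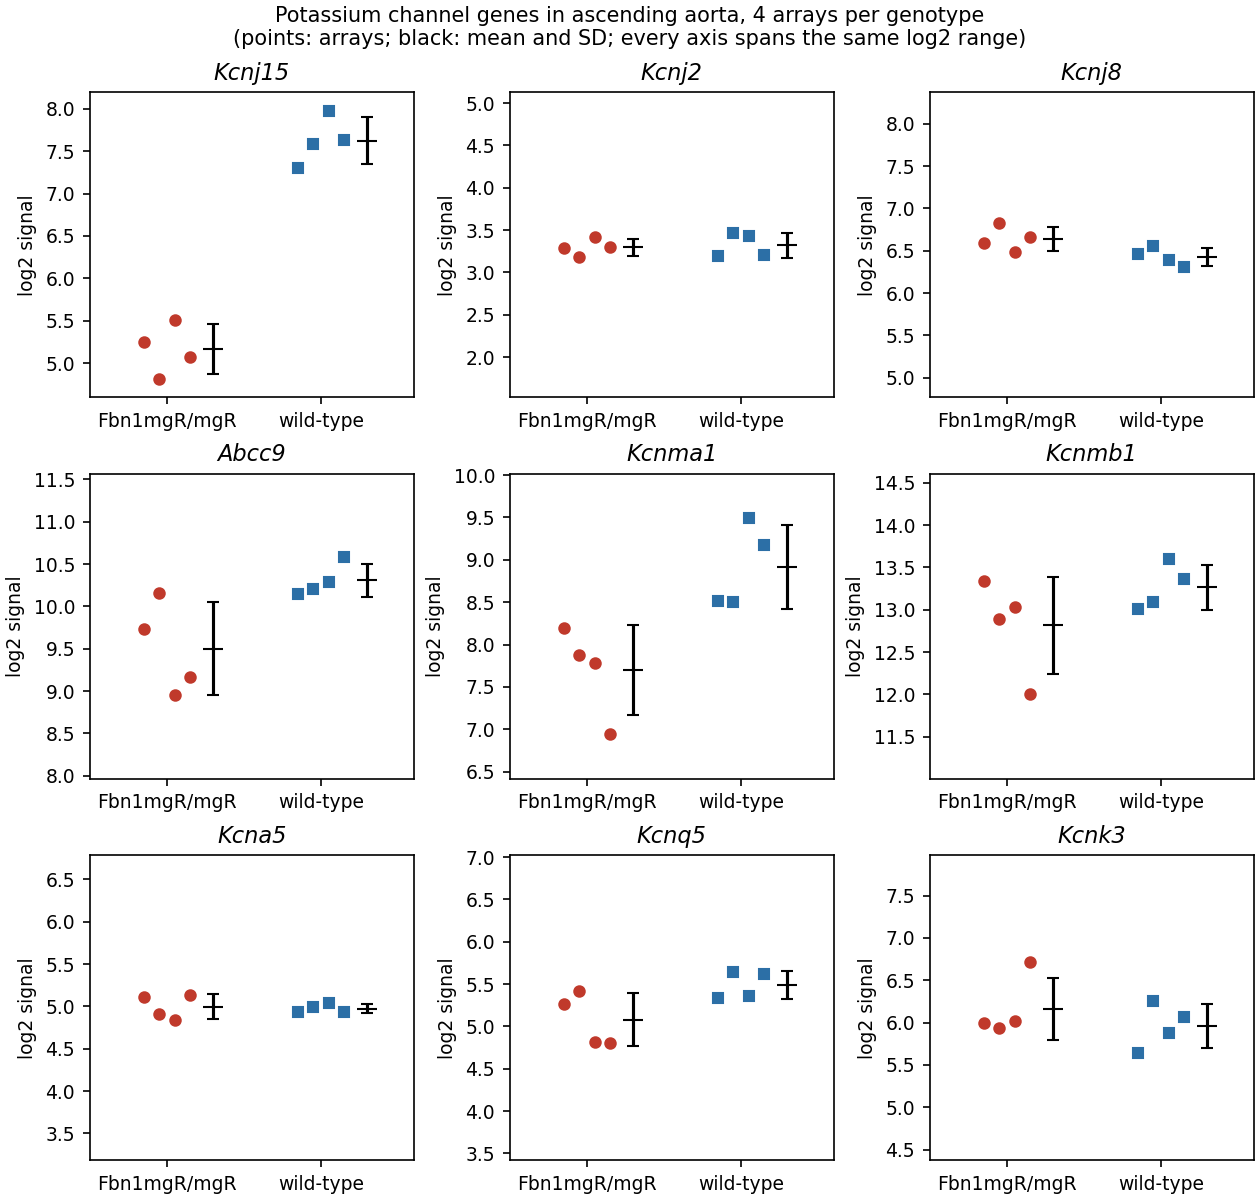
Log2 signals of the 9 potassium channel genes on the y axes, with Fbn1mgR/mgR arrays (red circles) left of wild-type arrays (blue squares), 4 each. Black marks show the mean and SD, and every axis spans the same log2 range. The genotypes are apart for Kcnj15 (4.81 to 5.51 in Fbn1mgR/mgR, 7.30 to 7.98 in wild-type) and for Kcnma1 (6.94 to 8.19 in Fbn1mgR/mgR, 8.50 to 9.49 in wild-type) and overlap in the other panels.

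Kcnj15 encodes an inwardly rectifying channel subunit known best from kidney epithelium. Its signals were 5.25, 4.81, 5.51 and 5.07 in Fbn1mgR/mgR aorta, against 7.30, 7.59, 7.98 and 7.63 in wild-type aorta. Every mutant array lay below every wild-type array. The means were 5.16 ± 0.295 in Fbn1mgR/mgR and 7.63 ± 0.279 in wild-type aorta (SD, n = 4 each), a difference of -2.47 (SE 0.187, 95% interval -2.89 to -2.04), or 5.52-fold lower in the mutant. This is given as a description with no p, because Kcnj15 was included for this difference. The interval takes no account of that choice. The mutant signals stayed above the range of dim clusters, for which the olfactory receptor genes served as a measure: the median of 1084 such genes was 3.38 and their 95th percentile 4.13. With the smooth muscle marker mean as a covariate the difference was -2.32, with the brown fat marker mean -2.47, and without mgR614 and WT676 -2.45.

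Kcnj15 lies on chromosome 16 between the coding genes Kcnj6 and Erg in the RefSeq order. Erg, an endothelial transcription factor gene and one of the endothelial markers, was singled out after its values were seen. Its signals were 7.15, 7.83, 7.32 and 6.47 in Fbn1mgR/mgR aorta, against 8.52, 8.41, 8.44 and 8.22 in wild-type aorta, with no overlap. The difference was -1.21 (SE 0.252, adjusted p in limma = 0.0447). It passed under 9 of 23 alternatives, with adjusted p between 0.0176 and 0.183. The alternatives include thresholds of 0.1, which Erg passed, and 0.01, which it missed, both at the same adjusted p of 0.0447. Of the 11 tested endothelial markers Erg alone passed the threshold. At an unadjusted p under 0.05, 4 were lower and 0 higher, beside 6.72% and 7.45% of all tested clusters. The median difference was -0.42, and the list mean was 8.80 to 9.48 in Fbn1mgR/mgR aorta and 9.20 to 9.79 in wild-type aorta. The part of endothelial content in the Kcnj15 difference was not tested, nor was that of the macrophage, B cell and skeletal muscle markers. The list means of these last separated the genotypes without overlap. B cell markers were at 4.26 to 5.13 in Fbn1mgR/mgR and 4.01 to 4.25 in wild-type aorta. Skeletal muscle markers were at 4.94 to 5.09 in Fbn1mgR/mgR and 5.18 to 5.30 in wild-type aorta.

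Kcnj2, which encodes the classical strong inward rectifier of endothelium and muscle, was dim in every array. Its signals were 3.29, 3.18, 3.42 and 3.30 in Fbn1mgR/mgR aorta, against 3.19, 3.47, 3.43 and 3.20 in wild-type aorta. Both genotypes lay around the olfactory receptor median and below the brightness required for testing (a mean signal above 4.01), so a difference was not measurable here.

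The pore and the regulatory subunit of the vascular ATP-sensitive channel differed in opposite directions, and neither passed the threshold. Kcnj8, the pore, had signals of 6.59, 6.83, 6.48 and 6.66 in Fbn1mgR/mgR aorta, against 6.46, 6.56, 6.39 and 6.31 in wild-type aorta. The groups overlapped by a single pair of arrays, mgR613 and WT676, and the difference was 0.21 (SE 0.12, 95% interval -0.06 to 0.48, adjusted p in limma = 0.493). Abcc9, the sulfonylurea receptor, had signals of 9.73, 10.16, 8.95 and 9.17 in Fbn1mgR/mgR aorta, against 10.15, 10.21, 10.29 and 10.58 in wild-type aorta. Of the mutant arrays mgR612 reached the lowest wild-type array, and the other 3 lay below all of them. The Abcc9 means were 9.5 ± 0.548 in Fbn1mgR/mgR and 10.31 ± 0.191 in wild-type aorta (SD, n = 4 each), a difference of -0.81 (SE 0.255, 95% interval -1.38 to -0.23, adjusted p in limma = 0.177), and adjusted p ranged from 0.0573 to 0.472 over the alternatives.

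Both subunits are abundant in pericytes, so the markers of small-vessel mural cells stand beside them. Of 9 such markers 6 were tested, and 1 rose and 1 fell past the threshold, beside 1.54% and 0.558% of all tested clusters. The mean of the tested markers was 7.77 to 7.86 in Fbn1mgR/mgR aorta and 7.67 to 8.0 in wild-type aorta. At an unadjusted p under 0.05, 2 were higher and 2 lower, beside 7.45% and 6.72% of all tested clusters. The marker that rose was Notch3, a receptor of the Notch pathway (difference 0.60, adjusted p in limma = 0.0227). The marker that fell was Rgs4, a regulator of G-protein signalling (-1.45, adjusted p in limma = 0.0249). Its relative Rgs5, the usual pericyte marker, had a difference of -0.98 (adjusted p in limma = 0.0656). Steap4, another marker of the list, had a difference of 1.52 (adjusted p in limma = 0.0988). The genotypes did not overlap for Rgs4 and Rgs5 (mutant below) or for Notch3 and Steap4 (mutant above). Every mutant array lay below every wild-type array for 3.65% of all tested clusters, and the share above was not counted. The 3 markers not tested had mean signals at or below the 95th percentile of the olfactory receptor genes. The part of mural cell content in the Abcc9 and Kcnj8 values was not tested.

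The BK pore gene Kcnma1 was lower on every Fbn1mgR/mgR array than on any wild-type array, but its difference missed the threshold. Its signals were 8.19, 7.88, 7.78 and 6.94 in Fbn1mgR/mgR aorta, against 8.51, 8.50, 9.49 and 9.17 in wild-type aorta. The lowest of all was mgR614. The means were 7.70 ± 0.534 in Fbn1mgR/mgR and 8.92 ± 0.494 in wild-type aorta (SD, n = 4 each), which is 2.33-fold lower in the mutant, with a difference of -1.22 (SE 0.309, 95% interval -1.91 to -0.53, adjusted p in limma = 0.0904). Kcnmb1, the beta subunit gene and a smooth muscle transcript, had signals of 13.34, 12.89, 13.03 and 12.01 in Fbn1mgR/mgR aorta, against 13.01, 13.09, 13.60 and 13.36 in wild-type aorta. The genotypes overlapped and mgR614 was again the lowest. The Kcnmb1 difference was -0.45 (SE 0.267, 95% interval -1.05 to 0.15, adjusted p in limma = 0.519), and -0.18 without mgR614.

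Both BK genes followed the smooth muscle markers from array to array. Taken as deviations from the genotype means over 8 arrays, and described with no test, Kcnma1 correlated with the smooth muscle marker mean at Pearson's r = 0.99 and Spearman's rho = 0.95, and still at r = 0.99 without the 2 arrays farthest from the median. For Kcnmb1 the values were r = 0.97, rho = 0.93 and r = 0.91, and between the BK genes they were r = 0.94, rho = 0.88 and r = 0.94. For Kcnj15 against the same marker mean they were r = 0.47, rho = 0.57 and r = 0.27. With the marker mean as a covariate, the Kcnma1 difference was -0.65 (SE 0.138, adjusted p in limma = 0.0833) and that of Kcnmb1 0.03 (adjusted p in limma = 0.962). None of the 14 smooth muscle markers passed the threshold in limma, and 3 were lower at an unadjusted p under 0.05, beside 6.72% of all tested clusters. With the brown fat marker mean as a covariate instead, Kcnma1 passed it, with a difference of -1.24 (adjusted p in limma = 0.0324), and without mgR614 and WT676 the difference was -1.11 (adjusted p in limma = 0.157). The deviations of the BK genes also ran against the brown fat marker mean, at r = -0.77 for Kcnma1 and -0.73 for Kcnmb1. The smooth muscle and brown fat means were never covariates in the same fit.

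**Figure D2:**
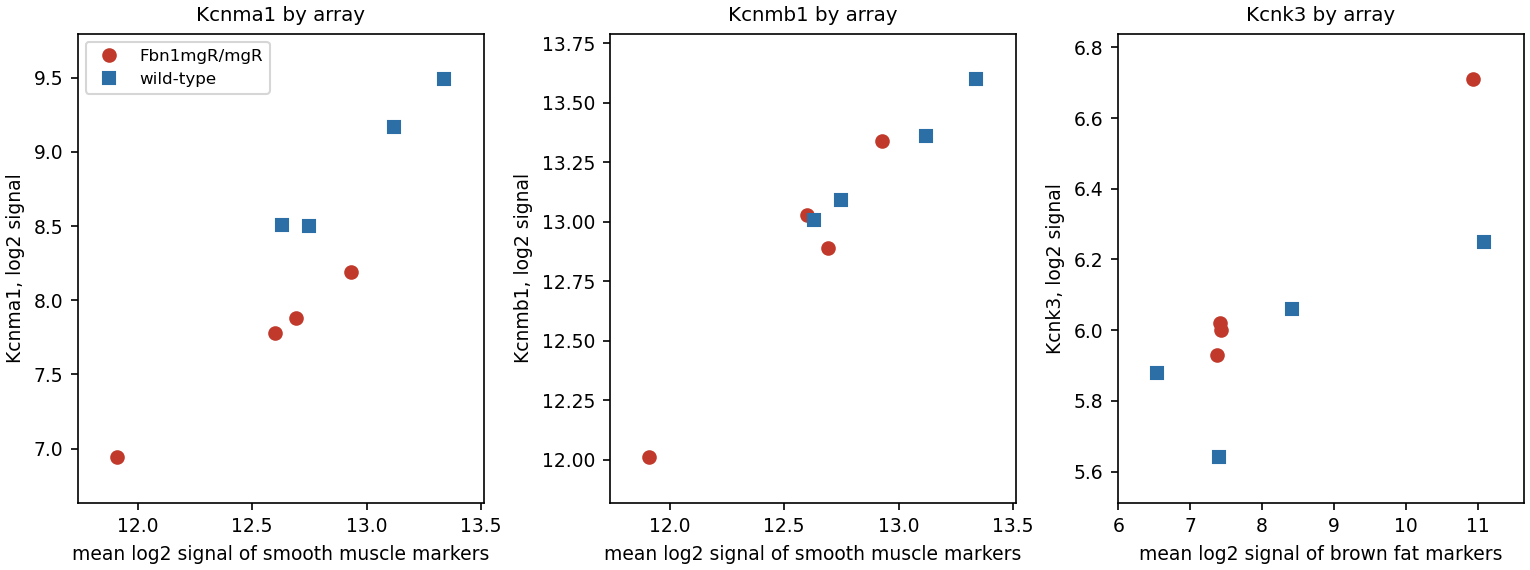
Log2 signals of Kcnma1 and Kcnmb1 (y axes) against the mean log2 signal of 14 smooth muscle markers, and of Kcnk3 against the mean of 8 brown fat markers, with 1 point per array (red circles Fbn1mgR/mgR, blue squares wild-type). At like marker means of 12.60 to 12.93, the Kcnma1 signals of 3 mutant arrays (7.78 to 8.19) lie below those of 2 wild-type arrays (8.51 and 8.50, at 12.63 and 12.75), while for Kcnmb1 the genotypes mix. Kcnk3 is highest in each genotype on the array with the most brown fat signal.

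Of the voltage-gated genes, Kcna5, a delayed rectifier of arterial smooth muscle, had narrow and overlapping signals. They were 5.11, 4.91, 4.84 and 5.13 in Fbn1mgR/mgR aorta, against 4.93, 4.99, 5.04 and 4.94 in wild-type aorta. The difference was 0.02 (SE 0.1, 95% interval -0.20 to 0.25, adjusted p in limma = 0.959), an interval that leaves out changes of more than 0.25 log2 units in either direction. Kcnq5, which encodes a slowly activating channel that opposes depolarisation in smooth muscle, had signals of 5.27, 5.42, 4.82 and 4.80 in Fbn1mgR/mgR aorta, against 5.33, 5.64, 5.36 and 5.62 in wild-type aorta. Of the mutant arrays mgR612 lay within the wild-type range and the other 3 lay below it. The difference was -0.41 (SE 0.164, 95% interval -0.78 to -0.04, adjusted p in limma = 0.293). The deviations of Kcnq5 and Abcc9 from their genotype means went together (r = 0.89, rho = 0.86 over 8 arrays, r = 0.80 without the 2 farthest), whereas those of the neighbours Kcnj8 and Abcc9 gave r = 0.46, rho = 0.26 and r = -0.68 without the 2 farthest.

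Kcnk3, an acid-sensitive leak channel of vascular smooth muscle that mouse brown adipocytes also express, had signals of 6.00, 5.93, 6.02 and 6.71 in Fbn1mgR/mgR aorta, against 5.64, 6.25, 5.88 and 6.06 in wild-type aorta. Its highest arrays, mgR614 and WT676, were the 2 arrays highest in brown fat markers. The difference was 0.21 (SE 0.201, 95% interval -0.24 to 0.66, adjusted p in limma = 0.731), and 0.22 (SE 0.129) with the brown fat marker mean as a covariate. It was 0.12 without mgR614 and WT676, 0.03 without mgR614 alone, 0.10 without WT675 and 0.01 with the smooth muscle marker mean as a covariate.

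Beyond the 9 genes, 92 other potassium channel and subunit genes were listed by family, of which 88 had a cluster and 35 were bright enough to test. In limma 0 were higher and 1 was lower in Fbn1mgR/mgR aorta, and before adjustment 2 higher and 7 lower had a p under 0.05. Over all tested clusters 1.54% were higher and 0.558% lower after adjustment, and 7.45% higher and 6.72% lower before it. The median difference was -0.06. The gene that fell was Kcnip4, a calcium-binding partner of A-type voltage-gated channels known mainly from neurons. Its signals were 5.51, 5.77, 5.47 and 5.07 in Fbn1mgR/mgR aorta, against 6.65, 6.83, 6.40 and 6.55 in wild-type aorta. The genotypes did not overlap, and the difference was -1.15 (SE 0.164, adjusted p in limma = 0.00786). With the smooth muscle marker mean as a covariate it was -1.07 (adjusted p in limma = 0.0549) and missed the threshold.

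Kcnab1, a beta subunit of voltage-gated channels, also did not overlap, with 7.58, 7.81, 7.42 and 6.92 in Fbn1mgR/mgR aorta against 8.14, 8.36, 8.29 and 8.45 in wild-type aorta. Its difference of -0.88 (SE 0.191) missed the threshold at an adjusted p in limma of 0.0525. It passed under 8 of 23 alternatives (0.0383 to 0.181), counting the looser threshold of 0.1, which left the adjusted p unchanged. A sister subunit gene, Kcnab2, had a difference of 0.30 (adjusted p in limma = 0.201), and every mutant array lay above every wild-type array. In all, 8 auxiliary subunit genes of voltage-gated channels were tested, with a median difference of 0.05. Among the other tested potassium channel genes, the genotypes also did not overlap for Kcnn4, Kcnt2, Kcnh1 and Kcna2 (mutant below) and for Kcnk7 (mutant above). Every mutant array lay below every wild-type array for 3.65% of all tested clusters. The share of clusters with every mutant array above was not counted, so Kcnab2 and Kcnk7 have no such share beside them.

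The 4 tested relatives of Kcnma1 among the calcium-activated and related channels had a median difference of -0.61, and none passed the threshold. Kcnn4, the intermediate-conductance channel of endothelium and immune cells, differed by -0.64 (adjusted p = 0.1), the sodium-activated Kcnt2 by -0.77 (adjusted p = 0.126) and the small-conductance Kcnn3 by -0.58 (adjusted p = 0.401). The other tested BK auxiliary genes were Lrrc52, which differed by -0.09, and Kcnmb4, whose mean signal of 4.08 lay below the 95th percentile of the olfactory receptor genes, where a difference is not measurable. Of 14 other voltage-gated pore genes none passed the threshold in limma, and 12 had a lower mean in the mutant. At an unadjusted p under 0.05, 3 were lower, beside 6.72% of all tested clusters. The 3 were Kcnc4 (-0.67, adjusted p = 0.129), the A-type channel gene Kcnd2 (-0.95, adjusted p = 0.289) and Kcnh1 (-0.26, adjusted p = 0.291). Among 6 other two-pore genes, differences ran from -0.22 to 0.24. Kcnk7 differed by 0.24 (adjusted p in limma = 0.280), Kcnk13 by 0.14 (adjusted p = 0.515) and Kcnk5 by -0.22 (adjusted p = 0.480). The Kcnk7 mean in wild-type aorta (4.03) and the Kcnk5 mean in Fbn1mgR/mgR aorta (4.11) lay below the 95th percentile of the olfactory receptor genes (4.13). Kcnj14 was the only other inward rectifier gene bright enough to test, with a difference of -0.01 (adjusted p = 0.985), and Abcc8, the second sulfonylurea receptor gene, was too dim.

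**Figure D3:**
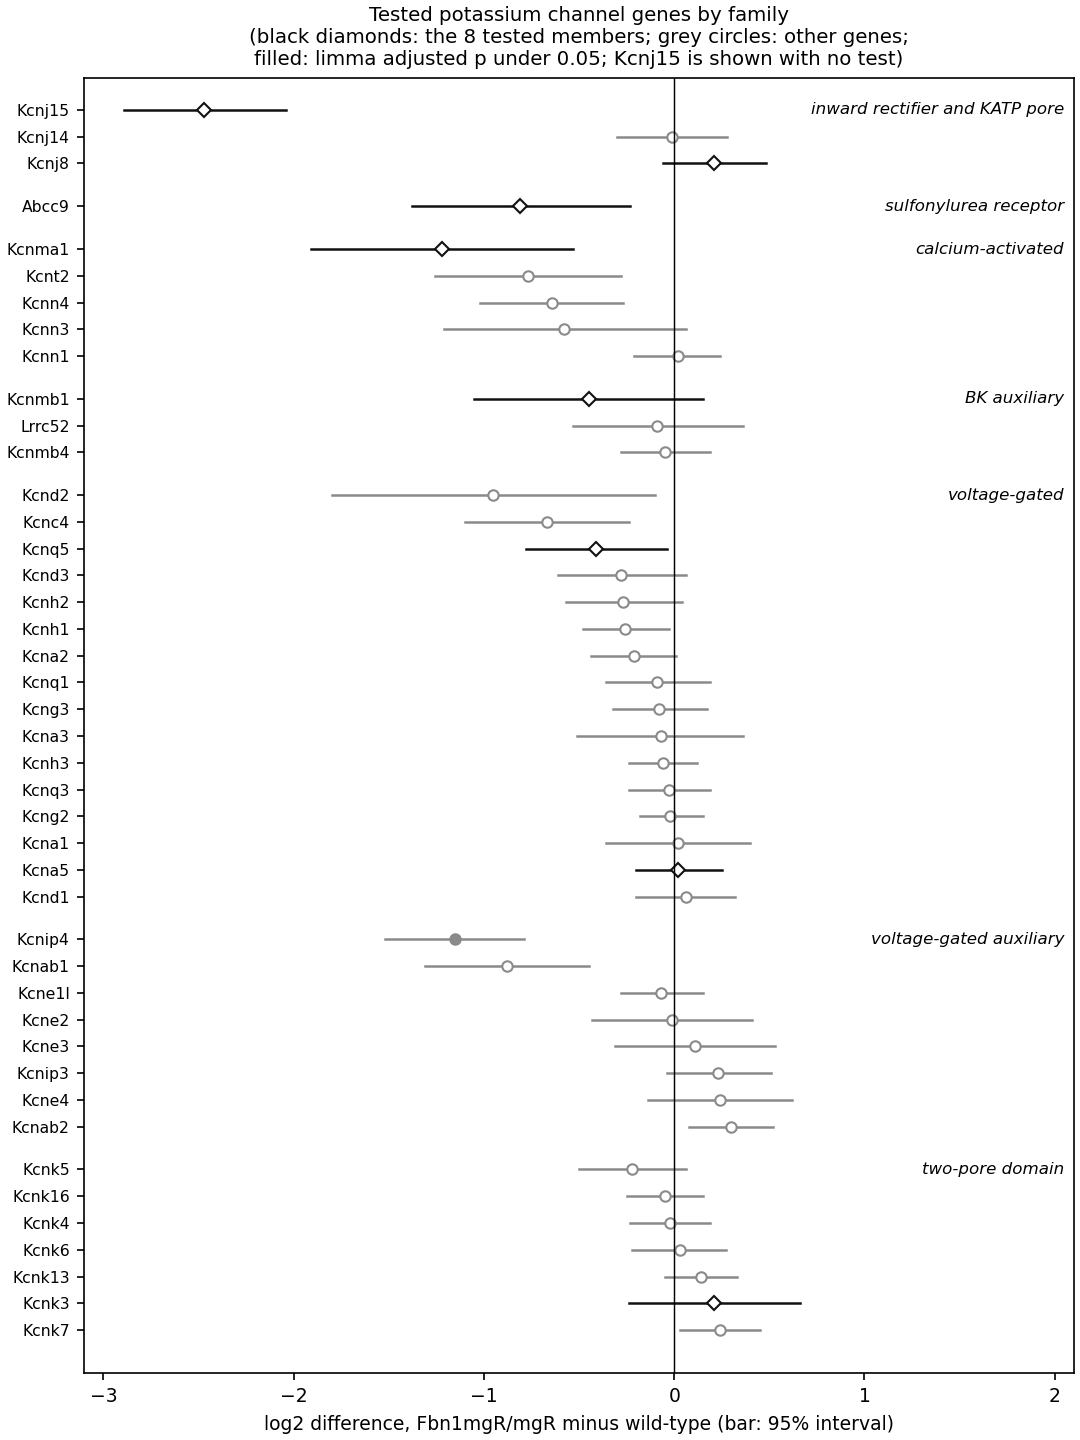
Log2 difference, Fbn1mgR/mgR minus wild-type, on the x axis for the 8 tested genes of the group (black diamonds) and 35 other tested potassium channel genes (grey circles) by family, with 95% intervals. Filled symbols have an adjusted p under 0.05 in limma, except that Kcnj15 (-2.47) is shown as a description with no test. Kcnip4 (-1.15) is filled, and most other intervals include 0.

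Genes of calcium entry and release, through which these channels act on contraction, were listed alongside. Of 17 genes 13 had a cluster and 11 were tested. None passed the threshold in limma, and 3 were lower at an unadjusted p under 0.05, beside 6.72% of all tested clusters. These were the T-type calcium channel gene Cacna1g (-0.27, adjusted p in limma = 0.211), the calcium-activated cation channel gene Trpm4 (-0.28, adjusted p = 0.261) and the L-type gene Cacna1d (-0.30, adjusted p = 0.299). The median difference of the 11 was -0.27.

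The genes whose deviations from the genotype means were most like those of Kcnj15 over 8 arrays, among 12280 named genes, were Grk5, a kinase of G-protein-coupled receptors (r = 0.959), Vasp, an actin regulator (r = 0.956), and Eif5b, a translation initiation factor (r = 0.951). They were picked as the highest of that many correlations and are given as descriptions. Their genotype differences were 1.44 for Grk5 (adjusted p in limma = 0.0585), 0.16 for Vasp (adjusted p = 0.673) and -0.07 for Eif5b (adjusted p = 0.9), so none of the 3 shared the direction and size of the Kcnj15 difference.

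Over 23 alternative settings the Kcnj15 difference ran from -2.58 to -2.32. That of Kcnma1 ran from -1.38 to -0.65, that of Abcc9 from -1.02 to -0.58 and that of Kcnj8 from 0.15 to 0.26, each on 1 side of 0. The Kcnmb1 difference ran from -0.62 to 0.03 and that of Kcnk3 from 0.01 to 0.31. Other filters, thresholds and eBayes settings, and averaging the clusters of a gene, cannot move any of these differences. The ranges therefore come from the remaining settings only.

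**Figure D4:**
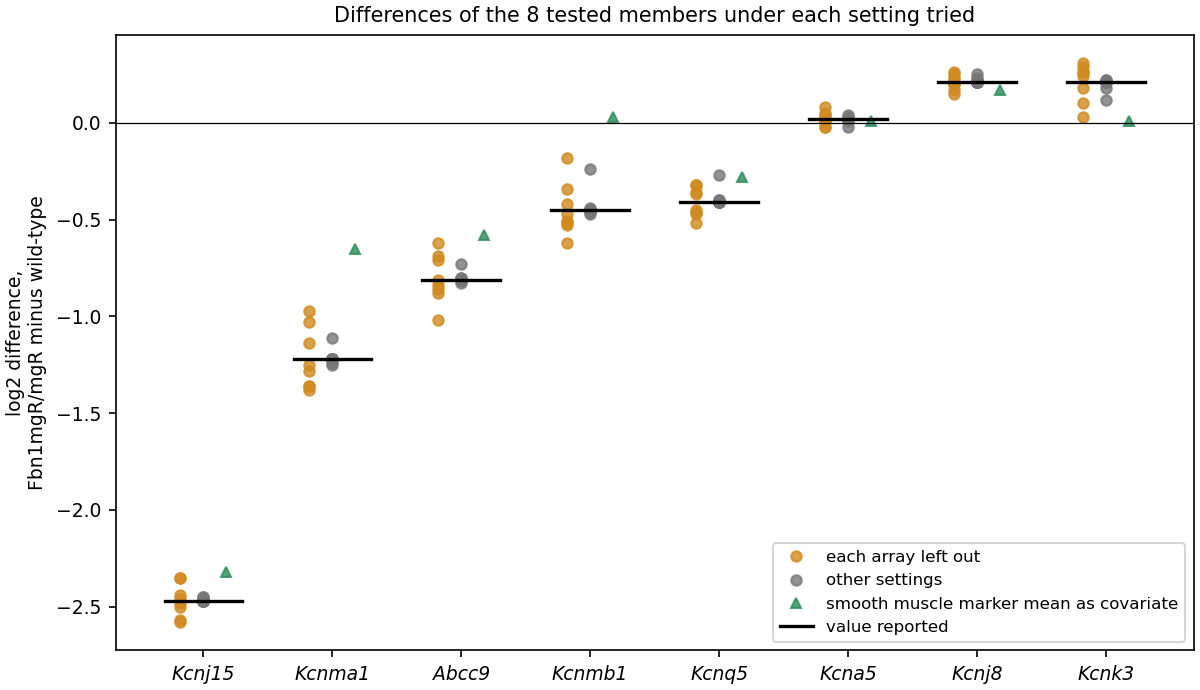
Log2 difference, Fbn1mgR/mgR minus wild-type, on the y axis for each of the 8 tested genes: the value reported (black bar), the fits that leave out 1 array each (orange), the other settings (grey) and the fit with the smooth muscle marker mean as a covariate (green triangle). That covariate moves Kcnma1 to -0.65 and Kcnmb1 to 0.03, and Kcnj15 to -2.32.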

How the data were processed

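Per the labels, total RNA of whole ascending aorta was measured on 8 Clariom D mouse arrays (Affymetrix). The authors deposited normalized log2 signals, 1 for each transcript cluster and array, rounded to 2 decimals. Per the submitters' processing notes the Transcriptome Analysis Console was used; how signals were normalized and probes summarised is not given in the sources used here. Genotypes came from the genotype label. Symbols came from the platform annotation, updated through gene IDs with the RefSeq gene table (GRCm38.p6; 22818 clusters matched, 827 symbols updated).

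Only clusters whose mean signal exceeded the median of 4.01 were tested. The test was limma 3.58.1 (R 4.3.3): lmFit, then eBayes with its trend estimated on all 65956 clusters, and Benjamini-Hochberg adjustment over the 32957 tested, at 0.05. Every adjusted p-value is from limma. The fit was tested on simulated data. The number of arrays limits the precision: the median standard error of a difference was 0.151. Alternatives were other filters, variance models, normalizations, marker means as covariates, other thresholds, each array left out, the prior from the tested clusters, and a fit leaving out mgR614 and WT676; the last 2 were chosen after seeing the data. The members and gene lists were chosen with earlier results of these data known. Named genes were the 9 members and the 3 genes most like Kcnj15. Other listed channel and calcium genes were named when past the threshold, with up to 3 per family of smallest p. Erg, Kcna2, Notch3, Rgs4, Rgs5 and Steap4 were named after their values were seen. Tables were made in pandas 2.3.3 (Python 3.11.15) and plots in matplotlib 3.10.9.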

Additional observations from a re-analysis of the deposited data

Results flagged for a closer look

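In 3 of 54 sets of 4 arrays examined, a single array lay far from the other 3 relative to the whole range; chance gives about 1 in 20 such sets. Kcnk3 in Fbn1mgR/mgR aorta was highest on mgR614 (6.71, next 6.02), the mutant array with the highest brown fat marker mean. Kcnmb4, a BK auxiliary subunit gene, was lowest on mgR612 (3.97, next 4.08) among the Fbn1mgR/mgR arrays, at a signal within the range of the olfactory receptor genes. Kcnk5, a two-pore channel gene, was highest on WT676 (4.63, next 4.27) among the wild-type arrays. Its mean signal of 4.22 lay just above the olfactory receptor 95th percentile of 4.13.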

How the results depend on the processing

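The genotypes share 0 replicate numbers and these numbers give no pairing of arrays, so no paired analysis was made. The numbers of the genotypes do not interleave, so anything that goes with the numbering cannot be told apart from genotype. The Kcnj15 difference, a description, ran from -2.58 to -2.32 over 23 alternatives, of which the filters, thresholds and eBayes settings cannot move it. Kcnj15 was included for its difference and is left out of the counts of calls. Of the other genes of the group, Kcnma1 was called lower with the brown fat marker mean as a covariate and at an adjusted p under 0.1. No other was called lower under any alternative, and 0 were called higher. Of the other channel genes, 2 were called lower (Kcnab1 with Kcnip4) above the upper quartile of mean signal, among clusters with 1 symbol, without a trend, with robust eBayes, with array weights, after quantile normalization and at 0.1. With each array left out 1 to 2 were (Kcnab1 added without mgR612, Kcnn4 without mgR613), and 0 with the smooth muscle marker mean as a covariate. Over all clusters 99 were lower with no filter, and 478 were higher and 204 lower with the brown fat covariate. Higher and lower counts were 224 and 53 with the smooth muscle covariate and 171 and 77 without mgR614 and WT676. They were 187 and 40 at 0.01, and 816 and 393 at 0.1. With each array left out there were 272 to 524 higher and 66 to 146 lower. Kcnmb1 reversed to 0.03 with the smooth muscle covariate. Kcna5 reversed to -0.02 without mgR614 and WT676, to -0.02 without mgR611 and to -0.02 without mgR614 (-0.02 to 0.08 with each array left out). The causes of these changes were not tested, beyond fewer arrays or clusters where the setting removes them. The upper-quartile filter did not test Kcnq5 and Kcna5. At signals near those of the olfactory receptor genes differences are not measurable, as for Kcnj2.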
